A study of Mus musculus with 16 samples.

Results

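Peaks outside the assembled mouse chromosomes were examined in 16 CUT&Tag peak lists for the transcription factors Bcl11a and Spi1. A peak was taken when its sequence name was neither one of the numbered chromosomes nor X, Y or M, and such sequences are called contigs here. The rule gave 1755 contig peaks of 131939 peaks in all, on 30 contigs. Another 130097 peaks lay on assembled chromosomes and 87 on the mitochondrial genome. Contig peaks that shared at least 1 bp were merged into 226 regions, against 34234 merged regions on assembled chromosomes. The rule used only the name of the sequence, so widths, ranks and counts are independent of it.

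A genome build holds, beside its chromosomes, pieces of sequence that could not be put in place. In mm10 a name that starts with chrUn marks a piece with no known chromosome, and a name that ends in random marks a piece assigned to a chromosome but not located on it. Such pieces are often rich in repeats and in sequence that has near copies elsewhere, and reads from such copies can pile up on a single piece.

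In CUT&Tag an antibody against a protein guides a transposase to chromatin, which then inserts sequencing adapters close to that protein. The zinc finger protein Bcl11a is a repressor known for its part in fetal globin silencing. Spi1, also called PU.1, is an ETS factor needed for myeloid and lymphoid development.

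The cells were MPP3, a multipotent progenitor population, sorted from the bone marrow of WT-iMOS and KO-iMOS mice, to study how Bcl11a acts in them. The Bcl11a libraries all came from WT-iMOS mice (3 labelled T1, 3 labelled T2). The Spi1 libraries came from WT-iMOS (3 labelled T1, 3 labelled T2) and from KO-iMOS mice (2 of each). All titles carry 3m. The labels do not say what 3m, iMOS, T1 and T2 stand for, which gene the KO removes, or whether replicates came from separate animals, so p-values measure the spread between these samples only, which may be technical. A Bcl11a list in KO-iMOS, a list without antibody and the read depth were not among the data used here. The peak names inside the lists began with PWT for KO-iMOS T1, PKO for KO-iMOS T2, PWG and BWG for WT-iMOS T1, and PMG and BMG for WT-iMOS T2. Groups follow the sample labels, which do not explain these names. Read as a genotype, PWT would go against the KO-iMOS label of 2 libraries, so results on genotype are also given without them.

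The lists held 2719 to 20241 peaks. Every list had a −log10 q of at least 2 for each peak. At genes used to sort MPP3 cells, Fcgr3 had a peak within 10 kb in 16 of 16 lists, 6, 6 and 4 of them in the 3 sets of libraries, and Flt3 in 5 Bcl11a, 6 Spi1 WT-iMOS and 4 Spi1 KO-iMOS lists. Kit had a peak in 2, 2 and 0 lists. The erythroid gene Hba-a1 and the T cell gene Cd3e had none in any list. A peak is not expression.

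The contig peaks were concentrated on few sequences. The 16 chrUn contigs carried 1532 contig peaks (87.3%) and the 14 random contigs carried 223 (12.7%). The 6 contigs with the most peaks held 1174 (66.9%). These were chrUn_JH584304 with 577 peaks, chrUn_GL456393 with 216, chrUn_GL456390 with 127, chrUn_GL456383 with 98, chrUn_GL456396 with 81 and chrUn_GL456389 with 75. On 9 of the 30 contigs all 16 lists had a peak, and these contigs held 1331 contig peaks (75.8%). At the other end, 6 contigs had a peak in only 1 or 2 lists, 11 peaks in all.

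On chrUn_JH584304 the Bcl11a lists held 36 to 47 peaks with a median of 38, the Spi1 WT-iMOS lists 38 to 47 with a median of 42, and the Spi1 KO-iMOS lists 22, 24, 23 and 14. On chrUn_GL456393 the ranges were 13 to 18 for Bcl11a and 14 to 18 for Spi1 WT-iMOS, and the KO-iMOS lists held 7, 9, 9 and 4. On chrUn_GL456390 all 6 Spi1 WT-iMOS lists held 9 peaks, the Bcl11a lists 8 or 9, and the KO-iMOS lists 5, 6, 7 and 2. On each of these 3 contigs the Bcl11a and Spi1 WT-iMOS ranges overlapped and every KO-iMOS list lay below both.

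The next 3 contigs showed the same, with every KO-iMOS list below both WT-iMOS sets. chrUn_GL456383 held 6 to 8 peaks in the Bcl11a lists and in the Spi1 WT-iMOS lists, and 4, 4, 4 and 3 in the KO-iMOS lists. chrUn_GL456396 held 5 to 7, 6 to 7, and then 1, 4, 2 and 2. chrUn_GL456389 held 4 to 6, 6 to 7, and then 1, 1, 2 and 1. Random contigs varied more between libraries of a set. For example, chr1_GL456221_random held 0 to 8 peaks in the Bcl11a lists, 3 to 5 in the Spi1 WT-iMOS lists and none in KO-iMOS.

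**Figure D1:**
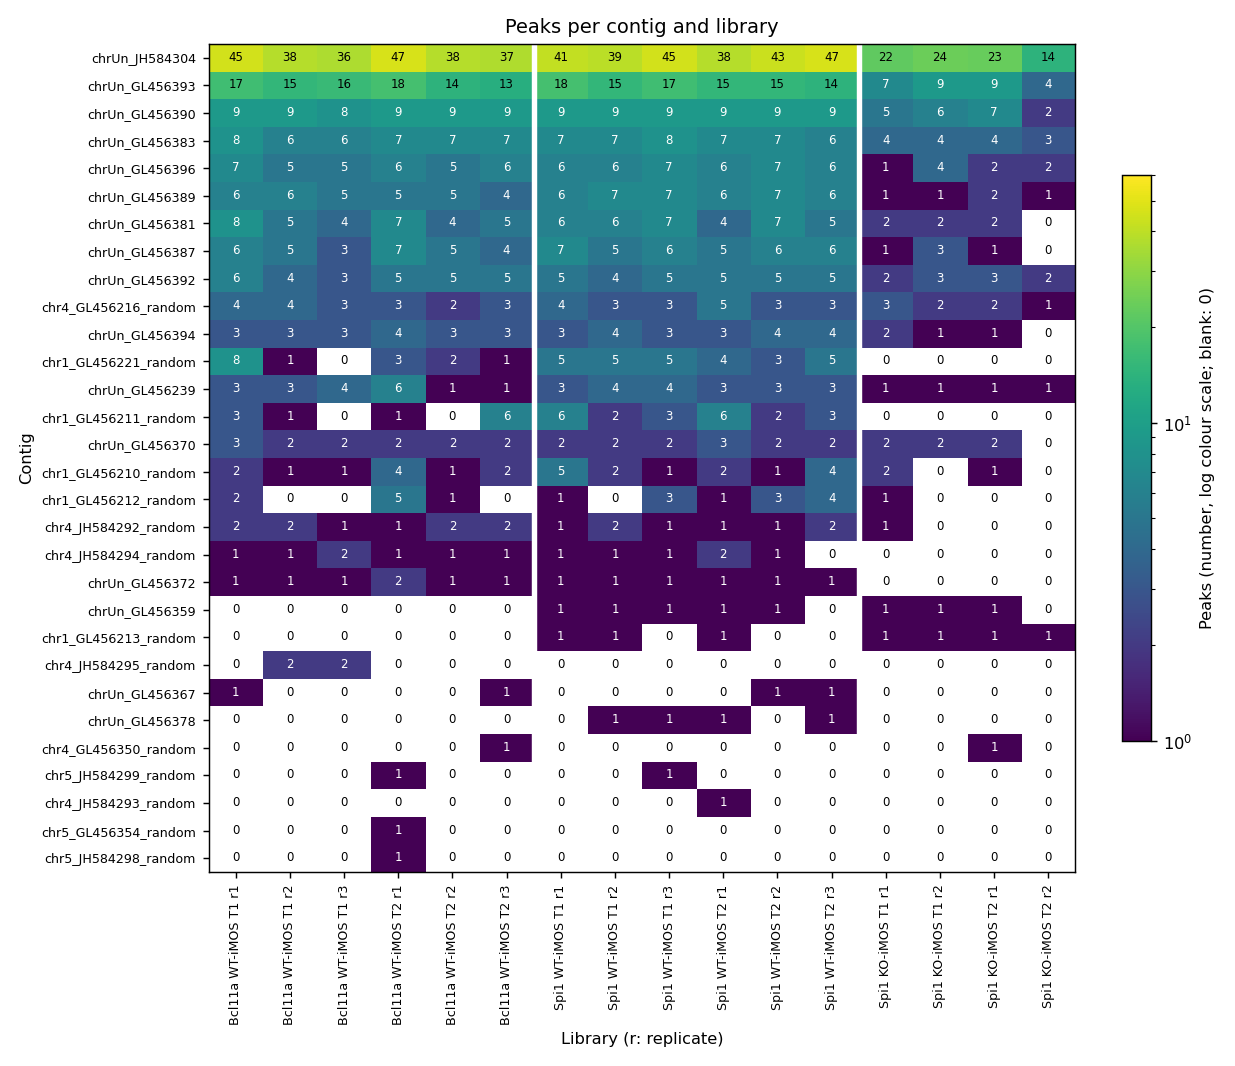
Number of peaks on each of the 30 contigs (vertical axis, ordered by their total) in each of the 16 libraries (horizontal axis, r marks the replicate). Colour shows the number on a log scale, blank cells are 0, and white lines part the Bcl11a WT-iMOS, Spi1 WT-iMOS and Spi1 KO-iMOS libraries. chrUn_JH584304 leads in every library, and the KO-iMOS columns hold fewer peaks on each of the 6 leading contigs.

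Regions on contigs recurred from list to list. All 16 lists had a peak in 25 of 226 contig regions (11.1%) and in 202 of 34234 assembled regions (0.59%), where the share over all merged regions was 0.67%. At least 12 lists had one in 83 contig regions (36.7%) and in 1618 assembled regions (4.73%), against 4.95% over all regions. A single list accounted for 55 contig regions (24.3%) and for 12585 assembled regions (36.8%). These shares are descriptions, since regions of 1 contig are not independent of each other. Of the 25 contig regions in all lists, 12 lay on chrUn_JH584304, 3 each on chrUn_GL456383 and chrUn_GL456393, and 2 each on chrUn_GL456390 and chrUn_GL456392.

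**Figure D2:**
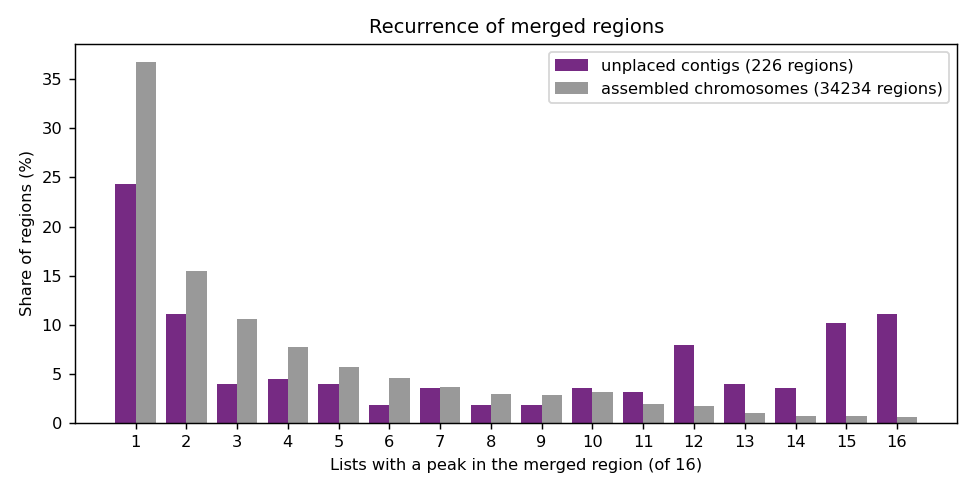
Share of merged regions (vertical axis, percent) with a peak in a given number of the 16 lists (horizontal axis), for 226 contig regions and 34234 assembled regions. The assembled shares fall from 36.8% at 1 list to 0.59% at 16 lists, whereas the contig shares are lowest in the middle of the range and reach 11.1% at 16 lists.

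The regions were shared across both targets. A peak in at least 1 list of each of the 3 sets of libraries was found for 71 contig regions (31.4%) and for 14% of assembled regions. Another 82 contig regions (36.3%) had a peak in Bcl11a and Spi1 WT-iMOS lists and in no KO-iMOS list, against 9.71% of assembled regions. Only 2 contig regions (0.885%) were limited to KO-iMOS lists, against 33.4% of assembled regions. These were chr4_GL456350_random 173378 to 173640 and chrUn_JH584304 56704 to 57119, each in 1 list, and they are named after their values were seen.

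Counting only regions seen in at least 2 lists of a set, 129 of 136 Bcl11a contig regions (94.9%) were also Spi1 WT-iMOS regions, and 129 of 148 Spi1 WT-iMOS contig regions (87.2%) were also Bcl11a regions. On assembled chromosomes these shares were 69.1% and 42%. All 59 KO-iMOS contig regions were also Spi1 WT-iMOS regions, which is 59 of 148 (39.9%) of the latter. On assembled chromosomes 45.6% of the KO-iMOS regions and 65.5% of the Spi1 WT-iMOS regions were shared.

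Where peaks stood in their own list was read from the authors' −log10 p and fold enrichment. Each was turned into a percentile within the list, where 50 is the middle, because lists of different length and depth cannot be set side by side on the raw values. The peak caller computes the fold over a local background, and the p-value rises with the height of the signal as well as with that fold.

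By −log10 p the contig peaks ranked high. The median percentile of contig peaks was 89.1 to 94.8 in the Bcl11a lists (median 90.1), 87.9 to 91 in the Spi1 WT-iMOS lists (median 89.9) and 82.1 to 90 in the KO-iMOS lists (median 88.5). All 16 values lay above those of assembled chromosomes, which were 48.4 to 49.9. The difference within a library was 40.4 ± 2.91 percentile points (SD, n = 16), above 0 in 16 of 16 libraries (exact sign-flip permutation test, two-sided, p = 3.05e-05, the smallest possible, adjusted 0.000183). Among contig peaks, 50.4% ± 7.74 (SD, n = 16) stood in the top decile of their list. The highest contig peak had a rank of 21 to 69 by −log10 p in its list, counted from the top, with 242 to 400 in the Bcl11a lists and 88.3 to 160 in the KO-iMOS lists, where assembled chromosomes reached 8382 to 10697 and 3783 to 5793.

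By fold enrichment the contig peaks as a whole ranked low, a difference that depended on chrUn_JH584304. The median percentile was 7.09 to 32.4 over the 16 lists, 33.7 ± 10.6 points below the assembled peaks (SD, n = 16; below in 16 of 16 libraries, exact sign-flip permutation p = 3.05e-05, adjusted 0.000183). Without chrUn_JH584304 the difference was −0.243 ± 17.5 points, below 0 in 8 of 16 libraries (exact sign-flip permutation p = 0.955). Without it the difference in −log10 p percentile was still 38.5 ± 4.98 points and above 0 in 16 of 16.

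That −0.243 is a mean over sets that went in different directions. The fold percentile of the remaining contigs was 5.29 points above assembled peaks in Bcl11a (above in 4 of 6 libraries, exact sign-flip permutation p = 0.375). In Spi1 WT-iMOS it was 17.4 points below (below in 6 of 6, exact sign-flip permutation p = 0.0312, the smallest possible with 6 libraries). In KO-iMOS it was 17.2 points above (above in 4 of 4, exact sign-flip permutation p = 0.125, the smallest possible with 4 libraries).

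**Figure D3:**
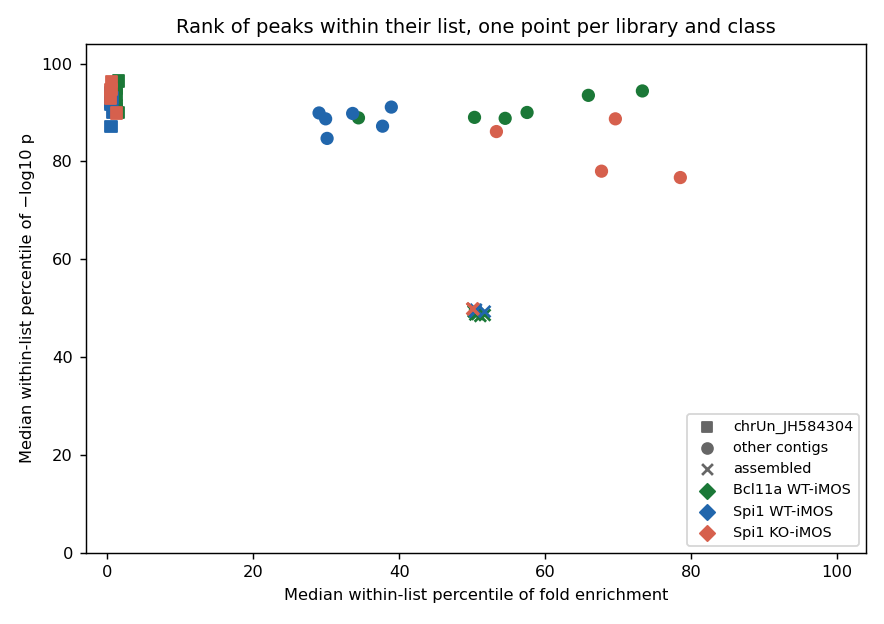
Median percentile of −log10 p (vertical axis) against median percentile of fold enrichment (horizontal axis), both within the library's own list, for peaks on chrUn_JH584304 (squares), on the other contigs (circles) and on assembled chromosomes (crosses). Each symbol is 1 library, coloured by set. The squares sit at fold percentiles of 0.4 to 1.5 and the circles at 29 to 78.5, with both above the crosses in −log10 p.

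Peaks on chrUn_JH584304 joined a high rank by −log10 p with the lowest folds of the list. Their median fold percentile was 1.16 to 1.5 in the Bcl11a lists, 0.4 to 0.721 in the Spi1 WT-iMOS lists and 0.447 to 1.28 in the KO-iMOS lists. Their median −log10 p percentile was 87.1 to 96.4 over the 16 lists. None of them stood in the top decile of fold in any list, while 78.6% to 97.9% of them stood in the bottom decile. Their median fold was 2.18 to 2.73, 2.1 to 2.72 and 3.2 to 3.36 in the 3 sets.

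The other chrUn contigs and the random contigs also parted. The median −log10 p percentile of the other chrUn contigs was 89.2 to 94.9 in Bcl11a, 89.3 to 93.3 in Spi1 WT-iMOS and 76.7 to 89.3 in KO-iMOS. On random contigs it was 31 to 71.7, 17.7 to 44.2 and 54.6 to 95.1, the last from only 2 to 8 peaks a library. In both WT-iMOS sets every random value lay below every chrUn value. So the high rank of contig peaks in WT-iMOS lists came with the chrUn contigs.

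Among peaks in the top decile of −log10 p, a comparison chosen after the data were seen, contig peaks had a median fold of 5.25 ± 0.463 and assembled peaks one of 11.4 ± 1.8 (SD, n = 16). The contig value was lower in 16 of 16 libraries (exact sign-flip permutation p = 3.05e-05). Without chrUn_JH584304, also chosen after the data were seen, the contig value was 8.15 ± 1.52 (SD, n = 16) and lower in 14 of 16 libraries (exact sign-flip permutation p = 0.000214). It was then 7.34 in Bcl11a and 7.46 in Spi1 WT-iMOS, lower in 6 of 6 each, and 10.4 in KO-iMOS, lower in 2 of 4.

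The regions of all 16 lists fell apart by contig in their fold. The median fold percentile of a region was 0.71 to 17.5 for the 12 regions on chrUn_JH584304 (median 2.34) and 15.4 to 98.1 for the 13 on other contigs (median 84.6). For assembled regions of all lists only the median within each library was taken. It was 67.1 to 88.2 (median 82.8), and the same measure for the 25 contig regions was 9.21 to 38 (median 16.7). By −log10 p both kinds of contig region ranked high, at 91.3 to 98.8 and 88.8 to 98.8.

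Taken over all ranks, contig peaks were wider than assembled peaks in the WT-iMOS lists. The median contig width was 392 to 482 bp in Bcl11a and 419 to 481 bp in Spi1 WT-iMOS, against 320 to 386 bp and 338 to 399 bp on assembled chromosomes. The difference was 103 ± 18.1 bp for Bcl11a and 87.4 ± 11.9 bp for Spi1 WT-iMOS (SD, n = 6 each; above 0 in 6 of 6, exact sign-flip permutation p = 0.0312, adjusted 0.0416). In KO-iMOS the contig width was 402 to 472 bp and the assembled width 444 to 493 bp. That difference was −24.6 ± 49.5 bp (SD, n = 4; above 0 in 1 of 4, exact sign-flip permutation p = 0.5). Among peaks in the top decile of −log10 p, median widths on contigs and assembled chromosomes averaged 521 and 493 bp in Bcl11a. They averaged 546 and 576 bp in Spi1 WT-iMOS and 483 and 718 bp in KO-iMOS. Width at like rank was not tested.

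The regions of chrUn_JH584304 were not alike along the contig. Its 56 merged regions were split at position 57144, the middle of the stretch that held peaks, since the length of the contig was not used here. The first part held 27 regions, with 0 in all lists and a median fold of 1.96. The second held 29 regions, with 12 in all lists and a median fold of 3.13. Spi1 WT-iMOS lists had a peak in 52.5% of the first and 89.1% of the second regions on average, Bcl11a lists in 48.1% and 89.7%, and KO-iMOS lists in 13.9% and 57.8%. The split was chosen with these values known and carries no test.

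**Figure D4:**
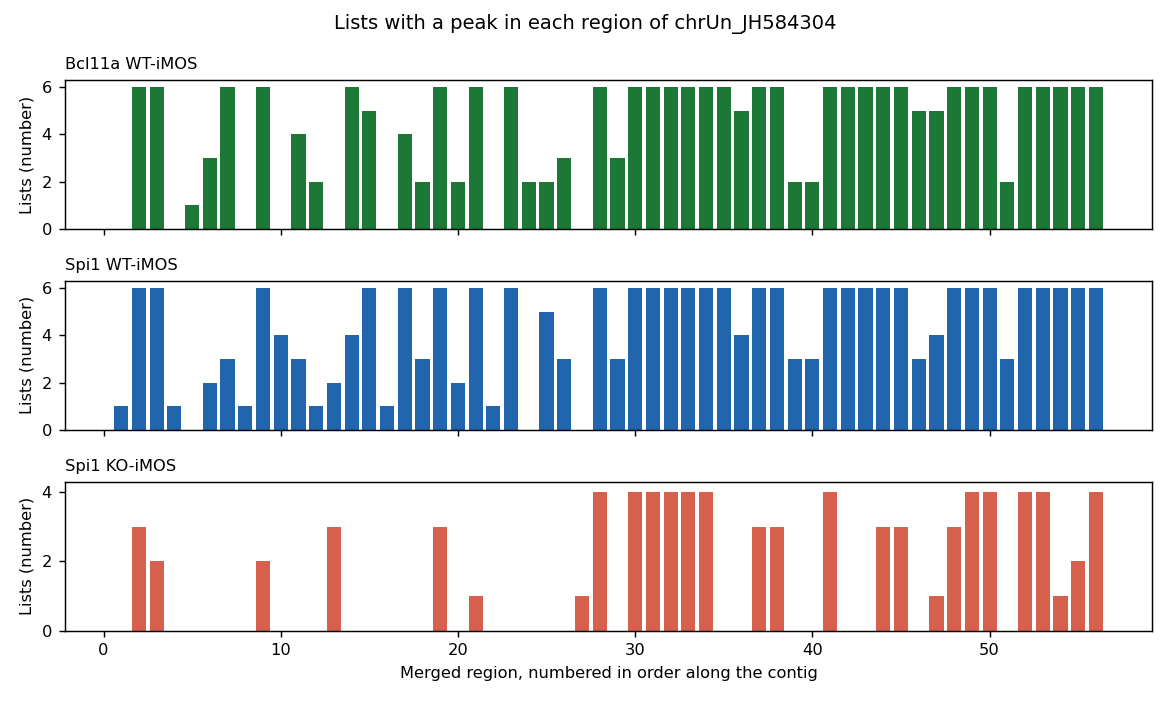
Number of lists with a peak (vertical axis) in each merged region of chrUn_JH584304, numbered in order along the contig (horizontal axis), for 6 Bcl11a WT-iMOS, 6 Spi1 WT-iMOS and 4 Spi1 KO-iMOS lists. The 12 regions found in all 16 lists stand among the last 29, and the first 27 regions hold few KO-iMOS peaks.

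The most recurrent regions were named in part by their −log10 p percentile, so a high rank by that measure comes with the choice. On chrUn_JH584304, positions 108838 to 109490 (mm10, 653 bp) held a peak in 16 of 16 lists at a −log10 p percentile of 97.6 to 99.4 and a fold of 3.92 to 4.87. Positions 103107 to 104518 stood at 97.5 to 99.5 with a fold of 3.74 to 4.33, and positions 112873 to 113582 at 96.9 to 99.2 with a fold of 4.02 to 4.9. All 3 lay in the second part of the contig. In the last of them the fold percentile within the list was 17.1 to 34.2 in Bcl11a, 13.5 to 32.2 in Spi1 WT-iMOS and 14.7 to 17.1 in KO-iMOS lists.

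Other contigs gave regions of higher fold. chrUn_GL456383 34276 to 35504, in 16 lists, had a fold of 12.3 to 14.6 in Bcl11a, 13 to 14.1 in Spi1 WT-iMOS and 10.4 to 13.7 in KO-iMOS lists. chrUn_GL456392 218 to 2142 and 21855 to 23400 were also in 16 lists, with folds of 9.98 to 16.3 and 8.2 to 12.7. chrUn_GL456370 26294 to 26628, in 15 lists, had the highest fold of the named regions. It was 30.1 to 33.8 in Bcl11a, 30 to 32.7 in Spi1 WT-iMOS and 20.1 to 20.4 in the 3 KO-iMOS lists that had it. Within their lists these folds stood at percentiles of 99 to 99.6, 99.4 to 99.8 and 99.7 to 99.8. chrUn_GL456389 10452 to 10939 had a peak in all 12 WT-iMOS lists at a fold of 17.3 to 20.6 and in 0 of 4 KO-iMOS lists.

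In Spi1 libraries the contigs held fewer peaks in KO-iMOS cells. The 2 T1 lists of KO-iMOS held 59 and 64 contig peaks, and the 2 T2 lists 63 and 31. The WT-iMOS lists held 139, 127 and 141 in T1 and 130, 132 and 137 in T2. The groups did not overlap, and the lowest value was that of KO-iMOS T2 replicate 2. The means were 54.2 ± 15.6 (SD, n = 4) and 134 ± 5.5 (SD, n = 6), 2.48-fold higher in WT-iMOS (exact permutation test, two-sided, p = 0.00952, the smallest possible, adjusted over 9 measures 0.0171).

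The KO-iMOS lists were at the same time longer, with 6372 to 20241 peaks against 5068 to 12261. The contig share of peaks was 0.423% ± 0.0928 (SD, n = 4) in KO-iMOS and 1.8% ± 0.587 (SD, n = 6) in WT-iMOS, 4.27-fold apart. Contigs with a peak numbered 15 ± 3.56 and 22.3 ± 1.03, and the length covered was 29.8 ± 8.09 kb and 73.3 ± 3.75 kb. Each of these 3 differences had an exact permutation p of 0.00952 and an adjusted p of 0.0171, with no overlap. Contig width and the percentile of −log10 p did not pass (adjusted 0.476 and 0.171). The fold percentile was 22.2 ± 10.7 against 9.53 ± 1.71 (exact permutation p = 0.019, adjusted 0.0286), but was lower by 1.13 points when lists were made equally long, and it no longer passed without KO-iMOS T1 replicate 1, T2 replicate 1 or T2 replicate 2 (9.96, 9.2 and 15.2 points, adjusted exact permutation p = 0.0714 each).

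Within T1 the means were 61.5 and 136 contig peaks, and within T2 47 and 133, with no overlap in either (the smallest exact permutation p in this design is 0.2). Without the T1 lists, whose peak names begin with PWT, KO-iMOS lists held 87.3 fewer contig peaks than the WT-iMOS lists (adjusted exact permutation p = 0.107), where 0.0714 is the smallest p before adjustment. With each list reduced to its strongest 2719 peaks, KO-iMOS lists held 24 to 40 contig peaks and WT-iMOS lists 84 to 109. The lists also differed in their narrowest peak (250 to 321 bp among KO-iMOS, 202 to 220 bp among WT-iMOS lists), so genotype and the way the lists were made cannot be told apart here.

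**Figure D5:**
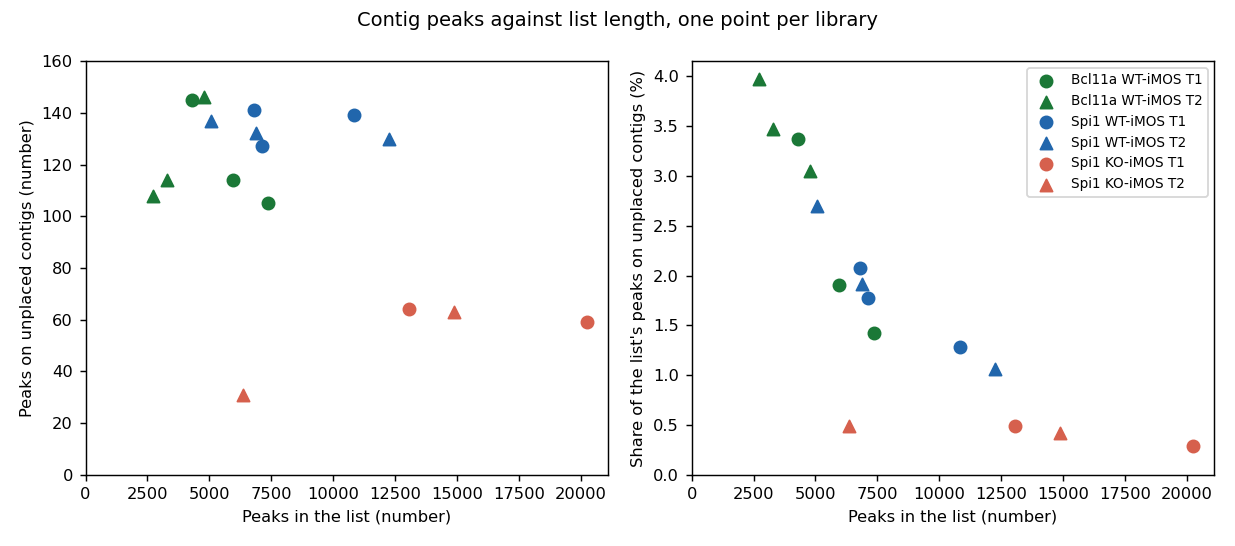
Contig peaks (left, number) and contig share of the list's peaks (right, percent) against the length of the list (horizontal axis, number of peaks), 1 point per library, coloured by set with circles for T1 and triangles for T2. The KO-iMOS lists hold 31 to 64 contig peaks and lie below all WT-iMOS lists at any list length, and the share falls with list length among WT-iMOS lists.

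The reduction covered most contigs. Of 24 contigs tested for their share of a list's peaks, 18 were lower and 0 higher in KO-iMOS (exact permutation, adjusted p = 0.0183 each), where 58.7% of all chromosomes and contigs passed. Of 21 assembled chromosomes, 6 were higher and 3 lower, so a lower share was not limited to contigs. The lower ones were chr8 (5.01% in KO-iMOS against 5.34% in WT-iMOS), chrX (1.59% against 2.24%) and chrY (0.0641% against 0.17%). The adjusted exact permutation p was 0.0337 for chr8 and 0.0183 for chrX and chrY. On chrUn_JH584304 the share was 0.167% ± 0.047 (SD, n = 4) in KO-iMOS and 0.575% ± 0.221 (SD, n = 6) in WT-iMOS. chr1_GL456211_random, chr1_GL456221_random and chrUn_GL456372 held no peak in any KO-iMOS list, and their WT-iMOS shares were 0.0441%, 0.0608% and 0.0134%. Over both targets, 11 contigs with 118 peaks had peaks in WT-iMOS lists alone. This count sets 6 Bcl11a and 6 Spi1 WT-iMOS lists against 4 Spi1 KO-iMOS lists. Among these contigs, chr4_JH584295_random, chr5_GL456354_random and chr5_JH584298_random had peaks in Bcl11a lists only. A like share over all sequences is not given, so nothing is concluded from the count. Shares within a list depend on each other. Without the KO-iMOS T1 lists 0 contigs passed, but with so few lists no contig could reach the threshold.

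Region by region, none of 151 contig regions passed (Fisher's exact test, smallest Benjamini-Hochberg adjusted p 0.105), where the share of all regions that passed was 0%. At an unadjusted p under 0.05, 45 contig regions (29.8%) were found in more WT-iMOS lists, against 4.1% of all regions, and 0 in more KO-iMOS lists, against 15.3% of all regions. The share of lists was higher in WT-iMOS for 120 contig regions and higher in KO-iMOS for 5. Of 19529 assembled regions tested, it was higher in WT-iMOS for 4584 and higher in KO-iMOS for 13220. Without the KO-iMOS T1 lists, 37 contig regions were found in more WT-iMOS lists at an unadjusted p under 0.05. With so few lists only a peak in every WT-iMOS and in no KO-iMOS list can reach this. The share over all regions without these lists is not given here, so nothing is concluded from that count.

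In 79 contig regions the shares differed by at least 0.5 in favour of WT-iMOS. Of these, 25 on 11 contigs tied with a peak in 6 of 6 WT-iMOS and 0 of 4 KO-iMOS lists (Fisher's exact test p = 0.00476, adjusted 0.105). The 25 belong to the 45 contig regions of unadjusted p under 0.05 (29.8%, against 4.1% of all regions). Like counts over all regions are not given for the 79 and the 25, which serve only to choose the regions named. The first 5 by name were chr4_GL456216_random 33528 to 35080, chrUn_GL456381 11662 to 11997 and 19739 to 20147, and chrUn_GL456383 22407 to 22791 and 28555 to 29071. In the other direction chr1_GL456213_random 38577 to 39141 was found in 4 of 4 lists of KO-iMOS and 3 of 6 of WT-iMOS (Fisher's exact test p = 0.2, adjusted 0.377).

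Assembled regions of like recurrence gave the values to set beside this. Every WT-iMOS list of both targets had a peak in 81 contig regions and in 634 assembled regions. Of the contig regions, 25 (30.9%) had a peak in all 4 KO-iMOS lists and 17 (21%) in none, and of the assembled regions 31.9% and 24.4%. On this count, chosen after the data were seen, contig and assembled regions had like shares.

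A further comparison chosen after the data were seen took the regions present in all 6 Bcl11a lists. The choice used no Spi1 value, but all 6 lists came from WT-iMOS mice, so it can favour WT-iMOS lists. Regions found only in KO-iMOS lists could not enter, and the p-values below do not allow for this. Spi1 KO-iMOS lists had a peak in 56.2% ± 15.7 (SD, n = 4; 32.9% to 67.1%) of the 85 contig regions and in 56.3% ± 15.3 of the 879 assembled regions. WT-iMOS lists had one in 98.6% ± 1.16 (SD, n = 6) and 87.5% ± 4.37. The gap between contig and assembled regions was −0.0806 points in KO-iMOS and 11.1 points in WT-iMOS (exact permutation p = 0.00952, n = 4 and 6). On contig regions alone KO-iMOS lists lay 42.5 points below WT-iMOS lists, and 50.4 points below without the KO-iMOS T1 lists (exact permutation p = 0.00952 and 0.0714).

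The overlap of covered bases was compared between the genotypes. The Jaccard index, the shared length over the joint length of 2 lists, averaged 0.566 among KO-iMOS lists, 0.684 among WT-iMOS lists and 0.36 between them. The difference within minus between was 0.29 (exact permutation, one-sided, p = 0.00476, the smallest possible, n = 4 and 6), and 0.14 on assembled chromosomes with the same p. Without the KO-iMOS T1 lists it was 0.346 on contigs (exact permutation p = 0.0357). KO-iMOS lists covered less of the contigs, and this alone holds the index between a KO-iMOS and a WT-iMOS list to at most 0.407 on average over 24 pairs. Of the contig bases of a KO-iMOS list, a WT-iMOS list covered 91.9% on average (84.7% to 96.3%), and in the other direction 37.3%. On assembled chromosomes these shares were 29.5% and 54.9%. Differences in location and in covered length cannot be told apart in the index.

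None of the 9 contig measures passed the test between Bcl11a and Spi1 lists from WT-iMOS cells. The Bcl11a lists held 145, 114 and 105 contig peaks in T1 and 146, 108 and 114 in T2, with a mean of 122 ± 18.5 (SD, n = 6), against 134 ± 5.5 (SD, n = 6) for Spi1 (exact permutation p = 0.154, adjusted 0.277). Of the Bcl11a lists, 2 lay above all Spi1 lists and 4 below them. The contig share of peaks was 2.87% ± 0.987 for Bcl11a and 1.8% ± 0.587 for Spi1 (exact permutation p = 0.0498, adjusted 0.161, n = 6 each). The Bcl11a lists were shorter, with 2719 to 7382 peaks against 5068 to 12261, and among WT-iMOS lists the share falls as lists grow. With each list reduced to its strongest 2719 peaks, the share was 4.05% ± 0.613 for Bcl11a and 3.61% ± 0.37 for Spi1 (SD, n = 6 each). How much of the difference comes with list length was not tested.

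The number of contigs with a peak depended on list length. It was 20.3 ± 1.75 for Bcl11a and 22.3 ± 1.03 for Spi1 (SD, n = 6 each; exact permutation p = 0.0606, adjusted 0.161). With lists made equally long it turned to 18.7 ± 1.86 and 14.8 ± 0.983 (adjusted exact permutation p = 0.0292, n = 6 each). No contig passed the test of its share (0 of 26 by exact permutation, 0% of all sequences, smallest adjusted p 0.0519). At an unadjusted p under 0.05 there were 9 of 26 contigs and 8 of 21 assembled chromosomes.

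Of 169 contig regions none passed (Fisher's exact test, adjusted by Benjamini-Hochberg), while 644 assembled regions did and the share over all regions was 4.66%. At an unadjusted p under 0.05, 0 contig regions were found in more Bcl11a lists, against 0.594% of all regions, and 1 in more Spi1 lists, against 9.99%. That region, chrUn_GL456359 19361 to 19830, had a peak in 0 of 6 Bcl11a and 5 of 6 Spi1 lists (Fisher's exact test p = 0.0152, adjusted 0.143). Among the largest differences in favour of Bcl11a, chr4_JH584292_random 13852 to 14312 had a peak in 4 of 6 against 0 of 6 lists and chrUn_JH584304 12773 to 13657 in 6 of 6 against 3 of 6 (Fisher's exact test p = 0.0606 and 0.182).

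The Jaccard index on contigs was 0.662 ± 0.0326 among Bcl11a lists, 0.684 ± 0.0223 among Spi1 lists and 0.666 ± 0.0218 between the targets. Within minus between was 0.00754 (exact permutation, one-sided, p = 0.0952, n = 6 each). On assembled chromosomes the same values were 0.267, 0.356 and 0.196, with a difference of 0.116 (exact permutation p = 0.00216). Lists of different targets thus overlapped on contigs nearly as much as lists of the same target, which was not so on assembled chromosomes. A p that misses the threshold does not show that the targets are alike on contigs.

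T1 and T2 libraries were compared within each target and genotype, and none of the 9 measures passed (exact stratified permutation, smallest adjusted p 0.385, n = 8 each). The T1 lists held 112 ± 33.9 contig peaks and the T2 lists 108 ± 40.2 (SD, n = 8 each; exact permutation p = 0.623, adjusted 0.7), and these SDs include the difference between genotypes. In the Bcl11a lists alone the contig fold percentile was 30.6 to 31.8 in T1 and 8.07 to 11.7 in T2, without overlap, a difference of 21.5 points. The same difference was 0.153 points in Spi1 WT-iMOS and −2.72 in KO-iMOS. That the Bcl11a difference exceeded that of Spi1 WT-iMOS by 21.4 points did not pass (exact permutation p = 0.06, adjusted over 24 tests 0.325). Bcl11a minus Spi1 in WT-iMOS was 21.8 points within T1 (31.4 ± 0.636 against 9.6 ± 0.416, SD, n = 3 each; exact permutation p = 0.1, the smallest possible) and 0.403 within T2 (9.85 against 9.45, exact permutation p = 0.8).

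For regions, the 8 T1 and the 8 T2 lists were pooled over targets and genotypes, without strata. Of 171 contig regions 0 passed Fisher's exact test, adjusted or not, where the shares over all regions were 0% adjusted, and 1.03% higher in T1 and 0.128% higher in T2 unadjusted. The largest difference was chrUn_GL456239 36099 to 36529, with a peak in 6 of 8 T1 and 2 of 8 T2 lists (Fisher's exact test p = 0.132).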

How the data were processed

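The authors deposited 1 narrowPeak list per library, with no pooling of replicates. The submitters' processing notes name mm10 as the build and Bowtie2, SAMtools and MACS2 as tools, with no version. Use of a control in peak calling is not stated there. A deposited peak has an interval, a whole-number score, a fold enrichment (a ratio), and p-value and q-value columns on a −log10 scale, all from the authors' peak caller. The score was not used. Fold enrichment and −log10 p served only to describe, rank or filter peaks of 1 list. Read counts were not part of the lists, so their depth is unknown and shares carry no counting interval. The number of peaks in a list limits the precision of a share. No sample had a file left out.

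The software was Python 3.11.15, pandas 2.3.3, scipy 1.17.1, numpy 2.4.6 and, for plots, matplotlib 3.10.9. Peaks were merged across the compared libraries at 1 bp of overlap, and a region entered a test if 2 or more libraries had it. Labels were permuted exactly to compare the 9 measures of a library, doubling the smaller tail for a two-sided p, within target and genotype for T1 against T2, with Benjamini-Hochberg adjustment over the 9. Contig and assembled peaks were compared by exact sign flips of the difference of medians over libraries. Presence per region was compared by Fisher's exact test and the share of peaks per sequence by exact permutation, both adjusted over the whole genome, with a threshold of 0.05. Scripts were tested on simulated data. Percentiles were taken within a list. No pair of lists shared more than 5 identical contig intervals.

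The members and lists were chosen with earlier results of these data known. Contigs named in full were the 6 with the most peaks and those that passed a test. Regions named were the 10 in most lists, the 5 with the highest mean −log10 p percentile among those in at least 8 lists, and up to 5 in each direction with the largest difference in share of lists, of at least 0.5. Not every region so chosen is printed. Alternatives were a −log10 q of at least 5, lists of equal length (the strongest 2719 peaks), merging across 500 bp, leaving out chrUn_JH584304, random contigs only, the replicate number as a block and leaving out each library. Leaving out 2 Bcl11a T1 or the KO-iMOS T1 libraries together, the fold in the top decile and the regions of all Bcl11a lists were added after the data were seen. Gene names and sequences of contigs were not used here.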

Additional observations from a re-analysis of the deposited data

Results flagged for a closer look

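Among the 6 Bcl11a lists, T2 replicate 1 stood apart with a median contig width of 392 bp, the others lying at 467 to 482 bp. Among the 4 Spi1 KO-iMOS lists, T2 replicate 2 stood apart with 31 contig peaks, the others holding 59 to 64. These came from 27 such checks for a single library far from its group, of which chance flags about 1 in 20.

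Contig minus assembled width was 112 bp lower in KO-iMOS than in WT-iMOS Spi1 lists, a difference of −112 bp (exact permutation p = 0.00952, adjusted over 24 tests of a difference between groups 0.229). The same contrast for the fold percentile was 13.1 points (exact permutation p = 0.019, adjusted 0.229). For the −log10 p percentile, contig minus assembled was 2.21 points higher in Bcl11a than in Spi1 WT-iMOS lists (exact permutation p = 0.0455, adjusted 0.325). None of these 3 passed the adjustment, and their causes were not tested. The mitochondrial genome held a median of 5 peaks a list, with 87 peaks in all and no control lists to set them against. Its peaks counted in the whole lists and in the shares over all regions and sequences, but not as contig or assembled peaks. In the test of the share of peaks per sequence it did not pass for target or genotype (adjusted exact permutation p = 0.0779 and 0.0685).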

How the results depend on the processing

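For 48 results, 816 values were computed under an alternative, of which 732 kept their direction and side of the threshold, or a count within 1.5 times. Directions that turned belonged to differences that had not passed, with 1 exception, the fold percentile in KO-iMOS against WT-iMOS. The cause of each change was not tested beyond what the construction of the alternative shows. Depth is unknown for all lists. 

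Replicate numbers pair libraries here only if each pair of deviations correlates above 0.1, which no comparison met. On contigs the correlations were −0.0554 to 0.0557 for genotype, −0.103 to 0.00608 for target and −0.0889 to 0.19 for T1 and T2 (2 of 8 pairs above 0.1). On assembled chromosomes they were −0.0226 to 0.034, −0.0973 to 0.0213 and 0.0104 to 0.166 (5 of 8 pairs). With the replicate number as a block (4 pairs for genotype, smallest possible p 0.125) KO-iMOS minus WT-iMOS was −77.8 contig peaks, −1.09 points in the share of peaks, −7.5 contigs, −42.6 kb covered, −1.44 points in the share of covered length and 12 points in the fold percentile, each at an adjusted exact p of 0.188.

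Without the KO-iMOS T1 libraries, too few to reach the threshold, these were −87.3 peaks, −1.35 points, −8.83 contigs, −46.9 kb, −1.82 points and 14 points (adjusted 0.107 each), width turned to 2.25 bp, 0 contigs passed, and the share of Bcl11a regions differed by −50.4 points. With lists of equal length Bcl11a minus Spi1 turned to 12 contig peaks, 3.83 contigs, 4.94 kb and −33.6 bp, and the fold percentile passed at 8.55 points. KO-iMOS minus WT-iMOS became −57.3 bp in width, −1.13 points in the fold percentile, −10.9 in the −log10 p percentile and −19 in the top decile. T1 minus T2 turned to −2.88 peaks, −0.5 contigs, −1.28 points in the −log10 p percentile and −4.53 in the top decile. In these lists 11 contigs passed for genotype, 14 contig regions were in all lists, and unadjusted calls for target were 1 higher in Bcl11a and 0 in Spi1.

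At a −log10 q of at least 5, Bcl11a minus Spi1 was −16.3 bp, 9.78 points in the fold percentile (passing), −0.94 in the −log10 p percentile and −3.47 in the top decile, with 0 regions higher in Spi1. KO-iMOS minus WT-iMOS was 7.55 points in the fold percentile (not passing), −3.33 in the −log10 p percentile and −8.51 in the top decile (both passing). On random contigs alone genotype gave 195 bp, 45.4 and 16.7 points, and T1 minus T2 −0.25 contigs. Without chrUn_JH584304 the top decile differed by −16.8 points for genotype, and contig minus assembled fold percentile was −0.243, a mean over sets that differed in direction. Without Bcl11a T1 replicates 2 and 3 together, Bcl11a minus Spi1 passed for the share of peaks (1.66) and of covered length (2.3), and turned to −8.5 bp and −0.737 points in the top decile.

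Leaving out 1 library gave −6.95 to 14.6 bp for target and −17.8 to 5.75 bp for genotype in width, 9.2 to 16.2 points in the fold percentile for genotype, and, for T1 minus T2, −6.82 to 11.7 peaks, −1.12 to 0.946 contigs and −1.18 to 9.05 kb. It gave 0 to 1 adjusted regions for target (1 without Spi1 T2 replicate 3), 0 to 1 and 1 to 2 unadjusted ones higher in Bcl11a and in Spi1, 0 to 1 higher in T1, 0 to 6 contigs for target (6 without Bcl11a T1 replicate 3), and a Jaccard difference of 0.0024 to 0.0134 for target (0.0134 and 0.0128 without Bcl11a T1 or T2 replicate 1, passing).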
